A study of Nasonia vitripennis with 39 samples.

Results

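Heads of triploid (3N) females were compared with heads of diploid (2N) males of the parasitoid wasp Nasonia vitripennis, to describe which head genes that differ between the sexes at the usual ploidy also differ when the female carries 3 chromosome sets and the male 2. The libraries were taken by their labels: 5 are 3N female heads and 5 are 2N male heads, 10 of the 39 libraries of the series. The series measured polyadenylated RNA in heads and abdomens of the Whiting Polyploid Line (strain WPL), a stock of this wasp in which extra chromosome sets arose on their own. The 3N females carry the genotype label WPL_LSL_3N and the 2N males the corresponding 2N label, and both were sampled at 1 day after emergence. Comparison groups of the same line and age were the 2N female heads and 1N (haploid) male heads, with 5 libraries each, and the 3N female and 2N male abdomens, with 5 libraries each. Means of the 2N female and 1N male abdomens are given for single genes. The pair of 2N females and 1N males has the usual ploidy of the species and shares no library with the 3N and 2N pair. In both pairs the female carries 1 chromosome set more than the male, so sex and ploidy cannot be told apart within either pair. Single animals and pools are not distinguished in the labels. The p-values therefore cover the spread among libraries alone, and that spread may be technical.

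In haplodiploid wasps unfertilised eggs usually give haploid males and fertilised eggs diploid females. In Nasonia the splicing regulator transformer (Tra) keeps its own female splice form going in females and directs the female splicing of doublesex (Dsx), a transcription factor of sexual differentiation. The transcription factor fruitless (Fru) is also spliced by sex in insects and is known for its part in male courtship circuits. Insect heads hold the eyes, antennae, mouthparts and brain, and so express odorant and gustatory receptors, opsins, neuropeptides, and enzymes such as cytochromes P450 that oxidise odours, hormones and foreign compounds. Values are for whole genes and do not tell splice forms apart. In whole heads, fewer cells of a type and less RNA per cell cannot be told apart.

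The 3N female heads held 18.1 to 71.9 M estimated counts and the 2N male heads 18.8 to 132 M. Libraries over 30 M, called deep here, were 3 of the 5 3N female heads and 4 of the 5 2N male heads, and the shallow ones in these groups were those whose names end in a letter (B34A, B35A and B12A). Levels are given in CPM, counts per 1 M counts of the TMM library size, in the order B31, B32, B33, B34A, B35A for 3N females and B11, B12A, B13, B14, B15 for 2N males. The long-wavelength opsin Lop1, an eye pigment, had 3410 to 5058 CPM in 3N female heads and 1847 to 6331 CPM in 2N male heads, against group means of 0 and 2.95 CPM in the abdomens of the same kinds of animal. The clock neuropeptide Pdf had 145 to 197 CPM in 3N female heads and 115 to 160 CPM in 2N male heads. Neither gene passed the test (log2 fold change 0.20 and 0.19; adjusted p = 0.687 and 0.342). The germline gene oskar had 3.84 to 7.75 CPM in 3N female heads and 2.73 to 4.77 CPM in 2N male heads, against a mean of 652 CPM in 3N female abdomens (adjusted p = 0.316 between the heads). In a fit of these 2 head groups alone, however, oskar passed as higher in 3N females. It also passed without both the 2N female head B21 and the 1N male head B5D. At the usual ploidy oskar was called higher in female heads (log2 2.91).

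The 2N male head B12A stood apart from its group before any comparison. In B12A 314 of the tested genes lay more than 2-fold (on CPM + 1) outside the range of the other 4 libraries of its group, while the other 9 libraries of the 3N and 2N pair had 2 to 90 such genes. Its summed level of the muscle markers Tm1, Tm2 and Zasp66 was the highest of the 10 heads, and the range over the group was 400 to 622 CPM in 3N females and 597 to 2049 CPM in 2N males. The muscle tropomyosin Tm1 alone had 1814 CPM in B12A, against 444 to 568 CPM in the other 2N males. Results that rest on B12A are given with and without it. Among the heads of the usual ploidy, 303 genes of the 2N female B21 and 1295 genes of the 1N male B5D lay as far outside their groups, so counts that use that pair are also given without both libraries. The 2 germline genes in the table, oskar among them, summed to 103 CPM in B21, against 8.7 to 17.1 CPM in the other 2N females. How much B21 adds to the genes higher in 2N females through germline RNA was not tested.

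Of 10846 genes tested in the heads, 2259 differed between 3N females and 2N males (20.8%), 919 higher (8.47%) and 1340 lower (12.4%) in 3N females (quasi-likelihood F test of edgeR, adjusted p under 0.05). An unadjusted p under 0.05 was reached by 3733 genes. Differences over 2-fold were 323 higher and 616 lower, those over 4-fold were 143 higher and 228 lower, and those over 16-fold were 34 higher and 65 lower. The 5 and 5 libraries did not overlap in 826 genes that were higher (7.62% of all tested) and 1138 that were lower (10.5%), and 605 and 945 of these also passed the test. The split depended on the scaling: 40.7% of the calls were higher with TMM, against 54.3% with library totals alone (1290 higher, 1086 lower) and 62.6% on log2(TPM + 1) (1443 higher, 863 lower). The median log2 fold change of all genes was 0.02 with TMM, 0.09 with library totals and 0.13 on log2(TPM + 1). Without B12A, 990 genes were higher and 1364 lower.

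**Figure D1:**
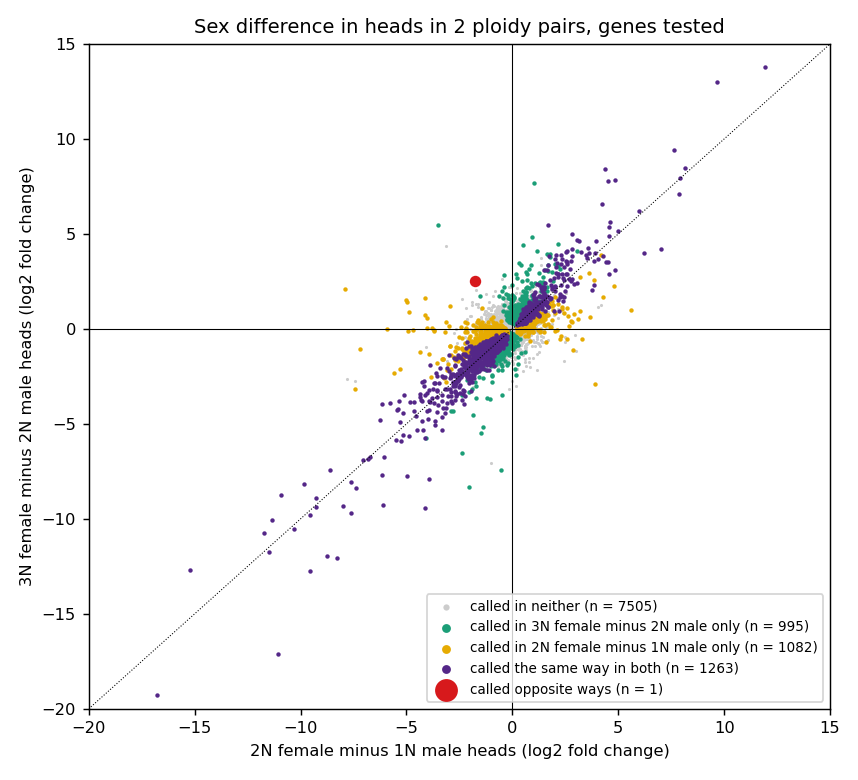
Log2 fold change of each gene tested in heads, 3N female minus 2N male (vertical axis) against 2N female minus 1N male (horizontal axis), coloured by which comparison called it at an adjusted p under 0.05; the dotted line marks equal values. The 1263 genes called the same way in both lie along that line and 1 gene was called in opposite directions.

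Most genes that differed between the sexes at the usual ploidy had the same sign in the 3N and 2N pair, and about as many passed the test there as did not. The 2N female heads had 921 genes higher (8.49%) and 1425 lower (13.1%) than the 1N male heads. Of the 921 higher genes 410 (44.5%) were also called higher in 3N females than in 2N males, where 8.47% of all genes were, and none was called lower. Of the 1425 lower genes 853 (59.9%) were also called lower, where 12.4% of all genes were, and 1, LOC100115888, was called higher. In sign alone, 866 of the 921 (94.0%) and 1347 of the 1425 (94.5%) went the same way. The genes higher in 2N females had a median log2 fold change of 0.39 in 3N females over 2N males and 0.60 in 2N females over 1N males, and the lower genes had medians of -0.78 and -1.04. The set was defined by the second of these, so the smaller median in the other pair is a description and not a test. These shares moved both ways with the libraries and the fit. Without the 3N female B33, 312 of 800 higher and 737 of 1480 lower genes (49.8%) were called again, the lowest shares with 1 library left out. In the fit of all 39 libraries the shares were 37.75% of 551 higher and 58.6% of 967 lower genes. Without both B21 and B5D they were 71.1% of 686 higher and 78.2% of 1223 lower genes. The calls between 3N females and 2N males moved too, from 919 higher and 1340 lower in the main fit. They were 465 and 910 with all 39 libraries, and 1509 and 1807 without B21 and B5D. The shares of these fits therefore rest on different numbers of calls. Leaving out B21 alone reduced the higher genes of the usual pair to 498, of which 64.9% were called again, and leaving out the 2N female B23 reduced them to 579, of which 54.6% were.

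The share called again grew with the size of the difference in the usual pair for genes higher in females. It was 98 of 345 genes (28.4%) for differences under 0.5 on the log2 scale, 157 of 341 (46.0%) from 0.5 to 1, 75 of 125 from 1 to 2, 57 of 83 (68.7%) from 2 to 4 and 23 of 27 (85.2%) over 4. For genes lower in females the share was 94 of 166 (56.6%), 272 of 514 (52.9%), 281 of 469 (59.9%), 147 of 201 (73.1%) and 59 of 75 (78.7%) in the same order. In the other direction, 508 of the genes higher in 3N females and 487 of the lower ones were not called at the usual ploidy, although 437 and 453 of them had the same sign there. A test of the difference between the sex effects called none of them, as described after the gene groups.

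**Figure D2:**
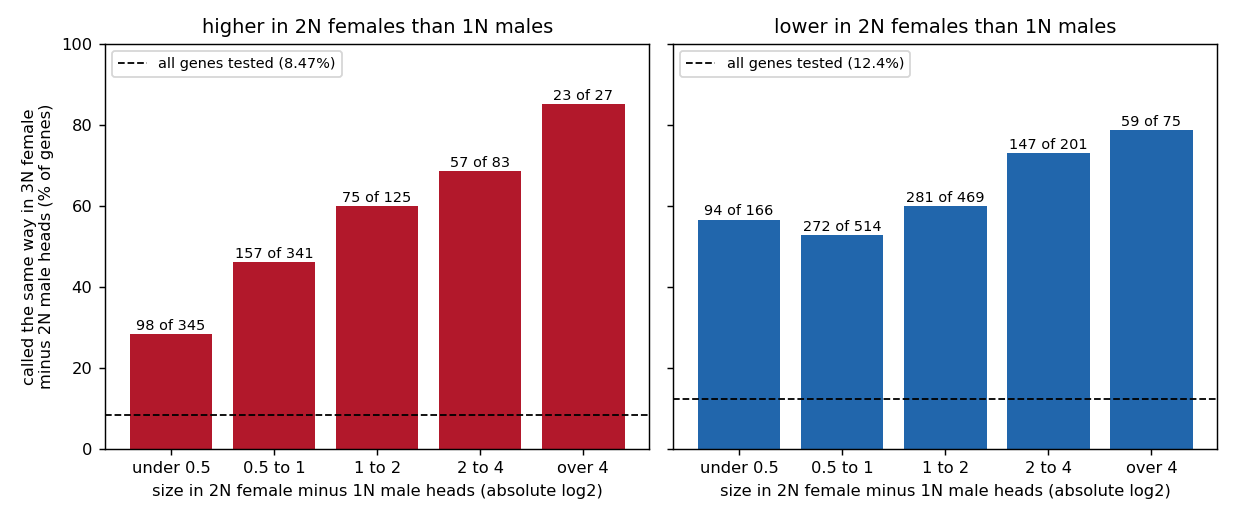
Share of the genes called in 2N female minus 1N male heads that were called the same way in 3N female minus 2N male heads (vertical axis, percent), by the absolute log2 fold change in the usual pair (horizontal axis), for genes higher (left) and lower (right) in females. Dashed lines give the share of all tested genes called in that direction, 8.47% and 12.4%, and the numbers over the bars give the genes behind each share.

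All 3 sex determination genes in the table rose in 3N female heads. Tra had 602, 566, 654, 356 and 475 CPM in 3N females, against 80.0, 72.6, 69.5, 70.6 and 64.4 CPM in 2N males. The lowest female library lay far above the highest male one, and the fold change was 2.89 ± 0.21 on the log2 scale (SE; adjusted p = 9.76e-09), against 2.54 (adjusted p = 6.38e-08) between 2N females and 1N males. Dsx had 353, 321, 256, 236 and 270 CPM in 3N females, against 166, 133, 111, 138 and 117 CPM in 2N males (log2 1.11 ± 0.17 SE, adjusted p = 8.46e-05). Fru had 217, 210, 230, 247 and 306 CPM in 3N females, against 114, 116, 133, 129 and 101 CPM in 2N males (log2 1.03 ± 0.22 SE, adjusted p = 0.00262). Neither gene's groups overlapped. At the usual ploidy Dsx and Fru were higher in females by 0.73 (adjusted p = 0.0038) and 0.80 (adjusted p = 0.015) on the log2 scale. There the groups overlapped for Dsx, with 163.9 to 271 CPM in 2N females and 127 to 202.5 CPM in 1N males. Fru had 116.7 to 190.9 CPM in 2N females and 36.1 to 112.5 CPM in 1N males. In abdomens Tra was also higher in 3N females than in 2N males (log2 1.68), while Dsx (-0.64, adjusted p = 0.198) and Fru (0.03, adjusted p = 0.897) did not pass the test, and the head and abdomen differences of all 3 genes differed from each other (adjusted p = 0.00148 for Tra, 0.0007 for Dsx and 0.00442 for Fru). Tra had 34.3 to 192 CPM in 3N female abdomens and 22.7 to 35.3 CPM in 2N male ones, so the groups overlapped. At the usual ploidy Tra was level, averaging 30.6 CPM in 2N female and 32.6 CPM in 1N male abdomens. Dsx varied widely among 3N female abdomens, from 19.5 to 458 CPM, against 337 to 422 CPM in 2N males. At the usual ploidy it averaged 9.53 CPM in 2N female and 402 CPM in 1N male abdomens, so the missing call does not show an absent sex difference there.

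**Figure D3:**
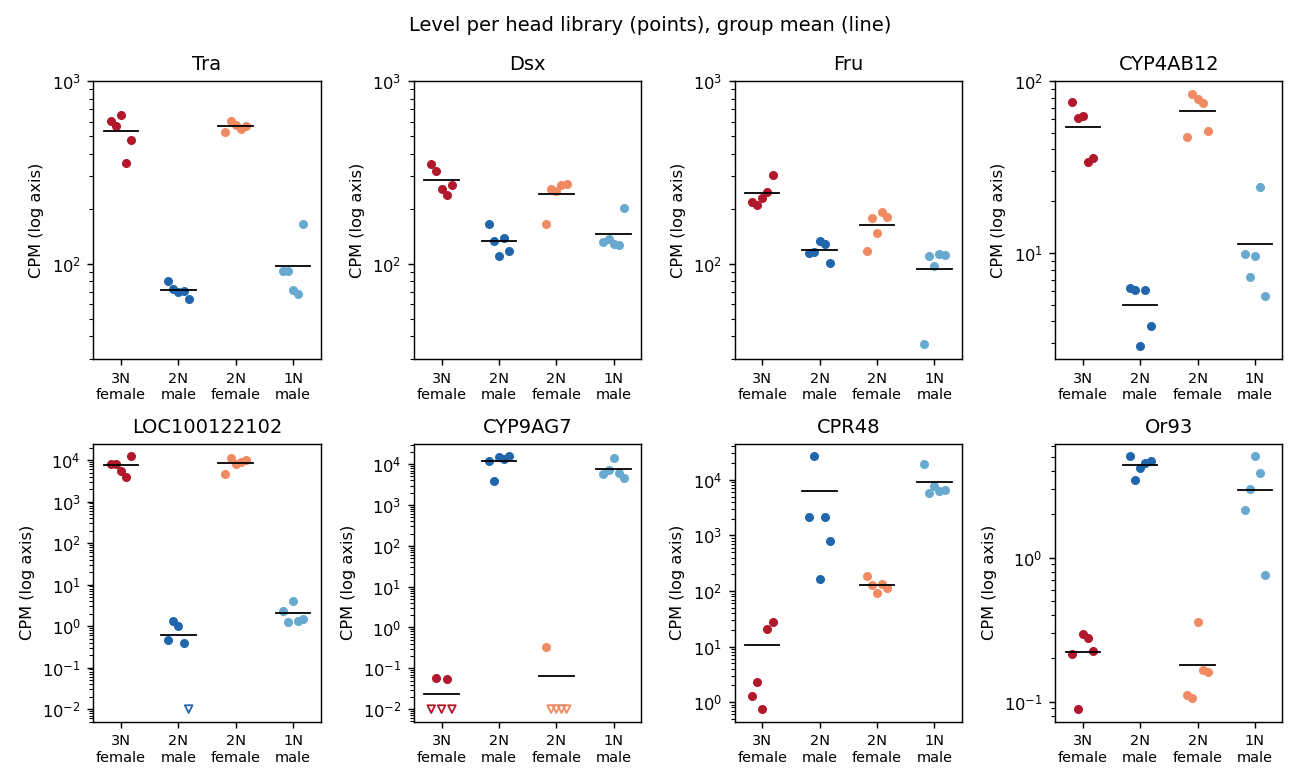
Level of 8 genes in each head library (points, CPM on a log axis) with the mean of each group of 5 (line), for 3N females, 2N males, 2N females and 1N males; open triangles at 0.01 CPM are libraries at 0. Tra, Dsx, Fru, CYP4AB12 and LOC100122102 lay higher in all 5 3N females than in all 5 2N males, and CYP9AG7, CPR48 and Or93 lay lower.

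Cytochromes P450 that passed the test were mostly lower in 3N females. Of 39 tested members 17 fell and 2 rose, where 12.4% and 8.47% of all genes did, and the median log2 fold change was -0.75 against 0.02 for all genes. At the usual ploidy 14 fell and 2 rose, and 13 and 2 were called the same way in both pairs. CYP9AG7 had 3 counts in all over the 3N females, in B32 and B34A, against 11699, 3896, 15305, 13247 and 15549 CPM in 2N males. The ratio of 2N males to 3N females from counts was 867700, with a 95% counting interval of 296900 to 4207000 that covers counting error only. CYP6CK11 also had 3 counts over the 3N females and 159, 36.2, 138, 160 and 172 CPM in 2N males, a ratio of 10050 (3438 to 48720), with B12A lowest for both genes.

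Other P450 genes fell by smaller factors. CYP4AB14 had 8.91, 12.9, 4.03, 7.18 and 7.04 CPM in 3N females, against 1105, 643, 864, 919 and 1118 CPM in 2N males (log2 -6.86 ± 0.49 SE, adjusted p = 9.71e-09). CYP4AB9 averaged 22.9 ± 11.4 CPM in 3N females and 256 ± 105 CPM in 2N males (SD, n = 5 each; log2 -3.49). CYP6CK8 averaged 0.172 ± 0.137 CPM in 3N females and 126 ± 45.2 CPM in 2N males (log2 -9.32). CYP314A1, which in Drosophila makes the active moulting hormone, was 8.93 CPM in 3N females and 15.2 CPM in 2N males on average (log2 -0.77, adjusted p = 0.000539). The 2 members that rose were CYP4AB12 and CYP4AB18. CYP4AB12 had 75.3, 61.3, 62.7, 34.05 and 35.6 CPM in 3N females, against 6.22, 6.09, 2.86, 6.06 and 3.75 CPM in 2N males (log2 3.44 ± 0.37 SE, adjusted p = 1.81e-06). Its 2 shallow female libraries were the lowest of their group and still lay above every male. P450 genes and other large families hold similar copies among which estimated counts divide shared reads, so the value of a single member carries that uncertainty.

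Cuticle protein genes, which code for structural proteins of the exoskeleton, fell or did not pass the test. Of 28 tested, 11 fell and none rose in 3N females, where 12.4% of all genes fell and 8.47% rose, and the median log2 fold change was -0.96 against 0.02 for all genes. At the usual ploidy 9 of the 11 were also lower. CPR48 had 1.31, 2.28, 0.748, 20.7 and 28.2 CPM in 3N females, against 2132, 26501, 167, 2140 and 794 CPM in 2N males. Its groups did not overlap, but the level varied widely within both, and the log2 fold change of -9.26 (adjusted p = 0.000118) was -6.97 without B12A. CPR37 averaged 0.243 ± 0.0611 CPM in 3N females and 7.22 ± 12.4 CPM in 2N males, with 29.3 CPM in B12A and 0.478 to 3.16 CPM in the other males, and its log2 fold change was -4.90 (adjusted p = 0.00482) with and -2.87 without that library. The call of CPR37 was lost with limma voom, on log2(TPM + 1) and in the deep libraries alone. More even members were CPR16, with 148 ± 51.5 CPM in 3N females and 486 ± 64.7 CPM in 2N males (log2 -1.72 ± 0.24 SE, adjusted p = 3.57e-05), and CPR34, with 26.8 ± 12.2 CPM in 3N females and 131 ± 15.3 CPM in 2N males (log2 -2.29). Without B12A 9 cuticle genes fell and 1 rose.

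The yellow and royal jelly family, relatives of the Drosophila pigmentation gene yellow and of the honeybee royal jelly proteins, had 5 falls and no rise among 14 tested genes, where 12.4% of all genes fell and 8.47% rose. The median log2 fold change of the family was -0.77, against 0.02 for all genes. Mrjpl8 was at 0 in 3 of the 3N females and at most 0.207 CPM in the others, against 5.44, 36.6, 1.67, 3.60 and 2.48 CPM in 2N males (log2 -7.67 ± 1.1 SE, adjusted p = 7.72e-05). B12A was again the highest male, and without it the value was -6.09. Y-f averaged 20.4 CPM in 3N females and 48.4 CPM in 2N males (log2 -1.25), and Y-b 10.8 CPM in 3N females and 25.6 CPM in 2N males (log2 -1.24). At the usual ploidy 5 genes of the family fell, and 4 were shared.

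Serine proteases and their inactive homologues went both ways, with 4 rises and 9 falls among 28 tested genes, where 8.47% of all genes rose and 12.4% fell. Their median log2 fold change was -0.34, and without the 3N female B31 or the 2N male B14 only 2 rose. SP43 had 8.74, 5.80, 9.62, 5.90 and 7.33 CPM in 3N females, against 0.38, 0.124, 0.669, 0.49 and 0.507 CPM in 2N males (log2 4.04 ± 0.66 SE, adjusted p = 0.000215). It was also higher at the usual ploidy (log2 2.54), and in abdomens it did not pass the test (-0.87, adjusted p = 0.324). The 3N female abdomens ranged from 1.00 to 85.1 CPM of SP43, and the 2N males from 43.7 to 105.5 CPM. At the usual ploidy SP43 averaged 0.580 CPM in 2N female and 72.8 CPM in 1N male abdomens. SPH103 fell to 0.365 ± 0.318 CPM in 3N females, against 12.1 ± 5.54 CPM in 2N males (log2 -5.31), and SP137 to 2.32 ± 1.79 CPM in 3N females, against 27.6 ± 13.2 CPM in 2N males (log2 -3.53). SP76 had 27.3 CPM in the 3N female B31 and 0.0563 to 6.39 CPM in the other 4, against 0 to 0.559 CPM in 2N males, and its call (adjusted p = 0.0191) was lost without B31 or without the 2N male B14.

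Glutathione transferases and carboxylesterases, which handle foreign compounds and esters, had 3 rises and 6 falls among 27 tested genes, where 8.47% of all genes rose and 12.4% fell, so the rises lay near the share over all genes. The median log2 fold change was 0.30, of the opposite sign to most calls. GstT2 fell most, with 40.8, 52.8, 30.01, 49.6 and 44.0 CPM in 3N females, against 479, 403, 330, 452 and 535 CPM in 2N males (log2 -3.34 ± 0.32 SE, adjusted p = 6.07e-07). GstT1 and GST-mic1 fell by 2.39 and 1.66 on the log2 scale. These 3 were among the 5 falls shared with the usual ploidy, while no rise was shared. The 3 rises were GstS5 (log2 0.74), CCE-A3 (1.44) and GstS2 (1.20), all with overlapping groups. Each lost its call when 1 library was left out: GstS5 without B13, B15, B31 or B33 (highest adjusted p = 0.0648), CCE-A3 without 6 of the 10 libraries (0.0758) and GstS2 without 7 (0.114).

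**Figure D4:**
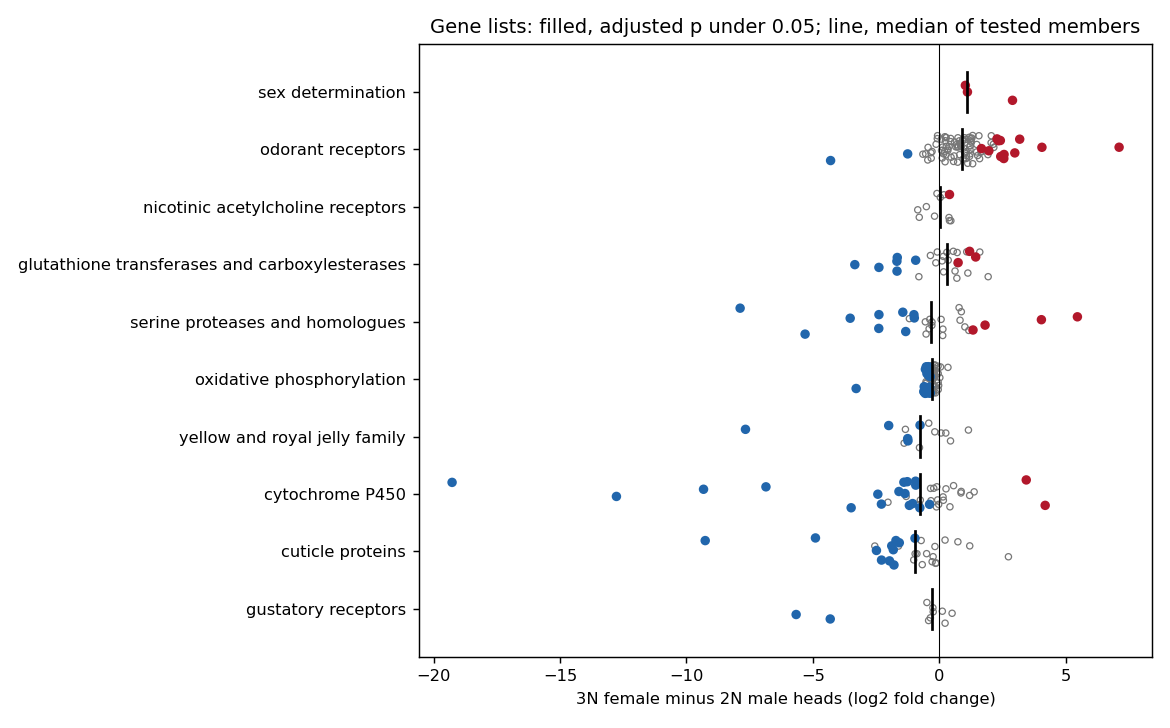
Log2 fold change, 3N female minus 2N male heads (horizontal axis), of each tested member of 10 gene lists (rows); filled points passed the test (red higher, blue lower), open points did not, and black lines are medians. Members of the P450, cuticle, yellow and oxidative phosphorylation lists that passed lie mostly to the left, and those of the odorant receptor list mostly to the right.

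Odorant receptors, the ligand-gated channels of antennal neurons, were mostly too low to test: 95 of 214 passed the filter on low counts. Of these 12 rose and 2 fell, where 8.47% of all genes rose and 12.4% fell, and 5 of the rises and both falls were also called at the usual ploidy. The median log2 fold change of the tested receptors was 0.91, against 0.02 for all genes, and 0.73 over 207 receptors with no filter, of which 17 rose and 3 fell. Summed over all 214, receptors had 562, 494, 473, 258 and 66.9 CPM in 3N females, against 219, 325, 113, 152 and 71.3 CPM in 2N males. The groups overlapped: the 3 deep female libraries were the highest and the shallow female B35A was the lowest of the 10. Without B12A, the highest male, 20 receptors rose, without the shallow female B35A 19 did, and in the deep libraries alone 28 did. Without the 2N male B11 7 rose, and in the fit of all 39 libraries 4 did. The choice of test also mattered, with 17 rises in DESeq2 and 34 in limma voom.

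Or275 and Or276 rose with no overlap between the groups. Or276 had 4.80, 3.37, 3.41, 3.12 and 2.09 CPM in 3N females, against 1.25, 0.745, 0.284, 0.75 and 0.296 CPM in 2N males (log2 2.34 ± 0.44 SE, adjusted p = 0.000898), and Or275 averaged 5.21 CPM in 3N females and 1.66 CPM in 2N males (log2 1.67). Or201 had 88 counts over the 3N females, with a value above 0 in each of them, and none in the 2N males, which makes it at least 55.4-fold higher (against 3 counts over the group). Or93 went the other way. It had 0.215, 0.0888, 0.294, 0.278 and 0.225 CPM in 3N females, against 5.05, 3.48, 4.20, 4.53 and 4.72 CPM in 2N males (log2 -4.30 ± 0.45 SE, adjusted p = 1.52e-06), and it was also lower in 2N females than in 1N males (log2 -4.02). Or296 also fell (log2 -1.25, adjusted p = 0.0104).

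Gustatory receptors and odorant-binding proteins were few. Of 10 tested gustatory receptors, out of 46 in the table, Gr32 and Gr33 fell and none rose. Of all genes 12.4% fell and 8.47% rose, so the falls lay near that share. Gr33 was not called at the usual ploidy (log2 -2.89, adjusted p = 0.0561). Gr32 had 0.117 and 0.237 CPM in B31 and B32 and was at 0 in the other 3N females, against 5.61, 2.86, 2.63, 5.43 and 3.49 CPM in 2N males (log2 -5.66 ± 0.93 SE, adjusted p = 0.000212), and it was also lower in 2N females than in 1N males (log2 -4.89). The odorant-binding protein OBP77 had 25.9, 29.7, 19.2, 3.78 and 0 CPM in 3N females, against 2.83, 1.304, 0.435, 1.18 and 0 CPM in 2N males (log2 3.78 ± 1.1 SE, adjusted p = 0.0205). Its deep female libraries lay far above the shallow ones, of which B35A, at 0, overlapped the males. The call was lost with limma voom, on log2(TPM + 1) and log2(TPM + 0.1), and when tested against a fold of 1.5. At the usual ploidy OBP77 was not called (log2 1.77, adjusted p = 0.243).

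**Figure D5:**
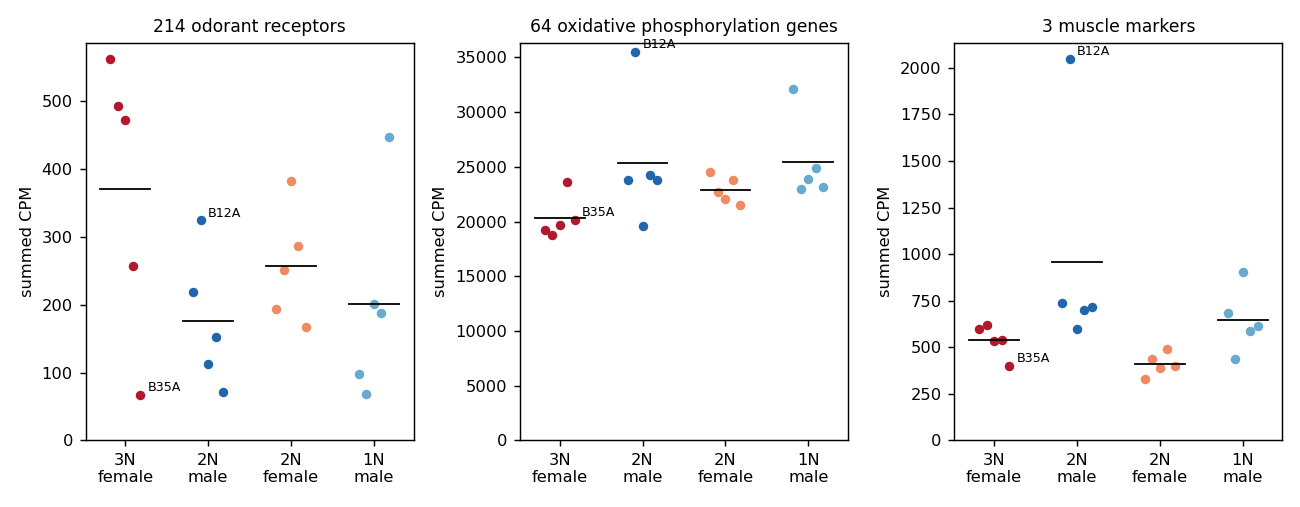
Summed level (CPM, vertical axis from 0) of the odorant receptors, the oxidative phosphorylation genes and the muscle markers in each head library (points) with the group mean (line). B12A has the highest sum of the 2N males in each panel, and the 3N female B35A the lowest receptor and muscle sums of its group.

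Nuclear genes of oxidative phosphorylation, the subunits of the mitochondrial respiratory chain and ATP synthase, fell or did not pass the test. Of 63 tested 22 fell, none rose and 41 did not pass, where 12.4% of all genes fell and 8.47% rose. The log2 fold change was negative in 60 of the 63, and the median was -0.29, against 0.02 for all genes. At the usual ploidy 1 fell, Cox7a1, and the median was -0.11. The median difference between the sex effects was -0.21, and no gene passed that test. Ndufa4, a respiratory chain subunit, had 404, 380, 401, 432 and 345 CPM in 3N females, against 491, 588, 504, 538 and 604 CPM in 2N males (log2 -0.47 ± 0.11 SE, adjusted p = 0.00417), with no overlap. Ndufa7 behaved alike, with 273 ± 23.9 CPM in 3N females and 375 ± 40.5 CPM in 2N males (log2 -0.46), and Uqcrc2 averaged 343 CPM in 3N females and 524 CPM in 2N males (log2 -0.61).

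The number of these genes that fell depended on libraries and scaling. The summed level of all 64 in the table was 18801 to 23662 CPM in 3N females and 19605 to 35518 CPM in 2N males, with the top value in B12A, where the muscle markers were highest as well. Without B12A 14 fell (median -0.23), without the 3N female B31 14 fell, without the 2N male B13 30 fell, and on log2(TPM + 1) 10 fell, where the median was -0.15 and that of all genes 0.13. Tested against a fold of 1.5, 1 fell. None rose in any of these. Of the muscle markers, Tm1 fell (log2 -0.97, adjusted p = 0.0287) and lost its call without B12A (log2 -0.40, adjusted p = 0.107), B31, B33 or B35A, while Zasp66 (log2 -0.69, adjusted p = 0.194) and Tm2 (log2 0.06, adjusted p = 0.792, with its sign turned without B12A and on log2(TPM + 1)) did not pass the test. At the usual ploidy Tm1 was not called (log2 -0.72, adjusted p = 0.0962). The part of muscle in the respiratory chain result was not tested.

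Of 3 markers of fat body, the insect storage tissue, 1 rose and none fell, where 8.47% of all genes rose and 12.4% fell. The storage hexamerin Hex83 rose, with 11, 8.32, 14.1, 3.84 and 8.45 CPM in 3N females, against 2.44, 6.89, 2.49, 2.56 and 2.20 CPM in 2N males (log2 1.501 ± 0.38 SE, adjusted p = 0.00807). The male B12A overlapped the females. At the usual ploidy Hex83 was not called (log2 0.01, adjusted p = 0.994). Hex109 (log2 0.63, adjusted p = 0.239) and Hex70b (log2 -0.19, adjusted p = 0.758) did not pass. The summed hexamerins were 8.85 to 20.5 CPM in 3N females and 4.46 to 12.9 CPM in 2N males.

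Of 5 tested genes of neuropeptides, hormones and their receptors 3 fell and none rose, where 12.4% of all genes fell and 8.47% rose. The neuropeptide gene ACP had 19.2, 17.02, 25.2, 24.7 and 21.98 CPM in 3N females, against 30.7, 41.4, 31.6, 32.8 and 41.1 CPM in 2N males (log2 -0.72 ± 0.14 SE, adjusted p = 0.000969), and it was not called at the usual ploidy (log2 -0.07, adjusted p = 0.739). Akhr, the receptor of the adipokinetic hormone that mobilises stored fuel, averaged 15.9 CPM in 3N females and 31.5 CPM in 2N males (log2 -0.999, adjusted p = 0.00954), with overlap through B12A at 14.6 CPM. The ecdysone receptor Ecr averaged 46.9 CPM in 3N females and 69.8 CPM in 2N males (log2 -0.58, adjusted p = 0.0108), without overlap. On log2(TPM + 1) and log2(TPM + 0.1) neither Akhr nor Ecr passed the test. Both were also called lower in females at the usual ploidy, Ecr with log2 -0.52 (adjusted p = 0.0204). Akhr averaged 9.89 CPM in 2N females and 45.3 CPM in 1N males there (log2 -2.20, adjusted p = 1.2e-05). The difference between its sex effects did not pass the test (adjusted p = 0.470). Of 11 nicotinic acetylcholine receptor subunits 1 rose and none fell, where 8.47% of all genes rose and 12.4% fell. It was nAChRa8 (log2 0.39, adjusted p = 0.0462), and its call was lost when any of the 10 libraries other than B12A was left out (highest adjusted p = 0.123). At the usual ploidy 4 other subunits fell, where 13.1% of all genes did, and none of these 4 passed here. None of 5 ligand-gated anion channels, 4 homeobox and segmentation genes, 2 lipid and hydrocarbon enzymes and 1 chitin enzyme passed.

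Among other named genes, the defensin gene Def2-3 (LOC100121630) of the antimicrobial defence rose to 20.97, 19.8, 17.4, 21.1 and 14.7 CPM in 3N females, against 8.29, 12.4, 9.53, 6.63 and 5.42 CPM in 2N males (log2 1.17 ± 0.25 SE, adjusted p = 0.00239). It was higher in females of the usual ploidy too, where both groups lay higher, at 48.1 CPM in 2N females and 29.6 CPM in 1N males. That call lay just under the threshold (log2 0.70, adjusted p = 0.0466). Its groups overlapped, with 42.1 to 60.9 CPM in 2N females and 14.7 to 48.7 CPM in 1N males. The prophenoloxidase ppo3, an enzyme of melanin formation, rose (log2 1.05, adjusted p = 0.0155), a call lost without B33 (adjusted p = 0.069). It was not called at the usual ploidy (log2 0.59, adjusted p = 0.165). Of the 6 immune genes Def2-3 and ppo3 rose, where 8.47% of all genes did, and the other 4 did not pass. The methyl-CpG binding gene Mbd averaged 55.3 ± 7.27 CPM in 3N females and 36.9 ± 5.84 CPM in 2N males (log2 0.58 ± 0.11 SE, adjusted p = 0.00091), as at the usual ploidy (log2 0.59). The splicing factor gene Sfrs16 (log2 0.63), star (0.53), the ribosomal protein gene Rpl41 (0.83) and Emc (0.46) rose, of which Rpl41 lost its call without B11, B12A, B14, B31, B32 or B33 (highest adjusted p = 0.0854) and Emc when any library other than B12A was left out (0.124). At the usual ploidy Sfrs16 was also higher in females (log2 0.79, adjusted p = 0.00218). There star (adjusted p = 0.317), Rpl41 (0.217) and Emc (0.0632) were not called. The cell cycle kinase Cdk4 rose (log2 1.17, adjusted p = 0.0295), as 1 of 15 cell cycle genes, where 8.47% of all genes rose. It lost its call without B12A, B15 or B32. CLGC1 fell (log2 -3.60, adjusted p = 1.11e-05), with 0.169 to 0.858 CPM in 3N females and 3.30 to 8.37 CPM in 2N males.

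Tested against a fold of 1.5, the genes Fru, Or275, Or296, Y-b, Hex83, ACP, Akhr, Ecr, Ndufa4, Ndufa7, Uqcrc2, Def2-3, Mbd, Sfrs16 and star no longer passed. Nor did ppo3, Rpl41, Emc, Cdk4, Tm1, nAChRa8, GstS5, GstS2, CCE-A3, SP76, OBP77 and LOC100120701. In the fit of all 39 libraries Or275, Or276, Or296, Y-f, ACP, Akhr, Def2-3, ppo3, Rpl41, Emc, Cdk4, CCE-A3, GstS2 and nAChRa8 did not pass.

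Genes without a descriptive symbol held some of the large differences. LOC100122102 had 8188, 8152, 5516, 4010 and 12277 CPM in 3N females, against 0.46, 1.304, 0.987, 0.383 and 0 CPM in 2N males (log2 13.80 ± 0.85 SE, adjusted p = 1.15e-09). The long non-coding RNA LOC116416192 had 28.8, 36.8, 21.2, 16.7 and 29.5 CPM in 3N females and no count in any 2N male, at least 3231-fold higher (against 3 counts over the group). LOC103316980 had no count in any 3N female and 556, 300, 419, 469 and 585 CPM in 2N males, at least 33620-fold lower. LOC100123365 had 0.169 to 0.351 CPM in 3N females and 1042, 495, 1085, 1125 and 1200 CPM in 2N males (log2 -11.72), with B12A lowest of the males. The smallest p of all was that of LOC100121233, with 7.99 ± 0.961 CPM in 3N females and 113 ± 10.8 CPM in 2N males (log2 -3.81 ± 0.16 SE, adjusted p = 4.19e-12).

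Counting genes that averaged 5 CPM or more in 1 sex and under 0.5 CPM in every library of the other gave 3 female and 16 male genes in the 3N and 2N pair and 4 female and 26 male genes in the usual pair. In both pairs 2 female and 13 male genes met the rule. The shared female genes were LOC116416192 and LOC100379126, and the shared male genes include CYP9AG7, CYP6CK11 and Mrjpl8. The usual pair is shallower, which changes what 0.5 CPM stands for in counts.

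The difference between the sex effects of the 2 pairs was tested directly, to ask where the sex difference of 3N females over 2N males departs from that of the usual ploidy. No gene passed with edgeR (0.0% of 10846, smallest adjusted p = 0.308), while 1044 genes (9.63%) had an unadjusted p under 0.05. DESeq2 called 12 genes, 8 with a more positive and 4 with a more negative difference in the 3N and 2N pair, and limma voom called none. A gene called in 1 pair and not in the other is therefore not shown to differ between them. The smallest unadjusted p, 5.23e-05, belonged to LOC100679273, which was 4.88 ± 1.42 CPM in 3N females and 0.467 ± 0.137 CPM in 2N males (log2 3.36), and 1.51 ± 0.646 CPM in 2N females and 0.807 ± 0.261 CPM in 1N males (log2 0.90). LOC100115888, the gene called in opposite ways, had 7.84, 14.4, 10.6, 2.28 and 2.20 CPM in 3N females, against 0.371, 2.86, 1.14, 1.01 and 1.47 CPM in 2N males (log2 2.52), and averaged 2.16 CPM in 2N females and 7.31 CPM in 1N males (log2 -1.76). Its 3N and 2N groups overlap, and its difference had an unadjusted p of 5.68e-05. LOC100115334 was level between 3N females and 2N males, at 4.92 ± 1.14 CPM in 3N females and 4.61 ± 1.5 CPM in 2N males, and was 2.42 ± 0.424 CPM in 2N females and 7.01 ± 1.32 CPM in 1N males.

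Abdomens of 3N females and 2N males gave a second tissue, with 4357 of 11884 genes higher (36.7%) and 4543 lower (38.2%) in females. Of the 919 genes higher in 3N female heads 872 were tested in abdomens, and 373 (42.8%) were higher and 227 lower there. Of the 1340 lower genes 1317 were tested, and 882 (66.97%) were lower and 172 higher. Among the genes called the same way in both head pairs, 183 of 395 were also higher and 88 were lower in abdomens, and 619 of 839 were also lower and 74 higher.

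Several head genes did not pass the test in abdomens. CYP4AB12 averaged 141 ± 97.8 CPM in 3N female and 142 ± 77.5 CPM in 2N male abdomens (log2 -0.01, adjusted p = 0.987), and its head difference was larger by 3.59 ± 0.7 on the log2 scale (SE, adjusted p = 4.04e-05). Its 3N female abdomens ranged from 14.9 to 253 CPM. At the usual ploidy it averaged 2.20 CPM in 2N female and 116 CPM in 1N male abdomens. CYP6CK11 averaged 4.05 ± 1.16 CPM in 3N female and 4.95 ± 1.66 CPM in 2N male abdomens (log2 -0.29, adjusted p = 0.648), so females with 3 counts in all in 5 heads had a readable level there, and the tissues differed (adjusted p = 7.45e-11). LOC103316980 was at 0.53 CPM in 3N female and 0.481 CPM in 2N male abdomens (adjusted p = 0.927; 1.71e-08 for the difference between the tissues). By contrast LOC100122102 averaged 7301 ± 3937 CPM in 3N female and 7.51 ± 1.68 CPM in 2N male abdomens (log2 9.92, adjusted p = 1.74e-10), and CYP4AB14 averaged 0.706 ± 0.816 CPM in 3N female and 1894 ± 198 CPM in 2N male abdomens (log2 -11.46).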

How the data were processed

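Per the submitters' processing notes, STAR (2.7.11a) and RSEM (1.3.1) were used, with no role stated. Genome build, annotation and strand setting: not given in the sources used here, so overlapping and antisense genes cannot be told apart. Of the files the authors deposited, 1 holds estimated counts (14621 genes, no normalization, 16.8% of values not whole) and 1 holds TPM (14613 genes, scaled for gene length and library total). Symbols and synonyms came from the RefSeq table of assembly Nvit_psr_1.1, which matched all 14621 identifiers.

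The estimated counts were rounded and tested with edgeR 4.0.16 in R 4.3.3: quasi-likelihood F test, TMM, filterByExpr, two-sided, Benjamini-Hochberg over all genes tested, called at an adjusted p under 0.05. The 20 heads entered 1 fit and the 19 abdomens another, and head and abdomen differences were compared in a fit of all 39 libraries. Standard errors are the log2 fold change over the root of F. In simulated counts of the 20 heads, tested as 3N female minus 2N male, 66% of 100 genes changed 2-fold and 90% of 100 changed 4-fold were recovered, and 9 of 165 calls were unchanged genes. Each simulated gene had 1 mean in all heads, apart from the changes set in 3N females, and noise at the estimated dispersions. The real data hold many more differences and libraries that stand apart, so these rates may not carry over. No libraries of a group agreed within sampling noise.

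The members and gene lists were chosen with earlier results of these data known, and list patterns were corrected after the symbols had been read. Among called genes without overlap and with 5 CPM or more on average in the higher group, the rule names the 12 largest rises and falls with a symbol and 4 without one in each direction, plus up to 3 per list and direction. It adds the sex determination genes, tissue markers, and the genes with the smallest p for the difference of the sex effects. CYP314A1 and Cox7a1 were named after their values were seen. Lists of clock genes and ionotropic receptors found no symbol. Alternatives used DESeq2 1.42.0, limma 3.58.1 (voom, and log2 of TPM with a pseudocount of 1 or 0.1), other scalings, filters and covariates, and left out each library in turn. Counting intervals are exact 95% intervals.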

Additional observations from a re-analysis of the deposited data

Results flagged for a closer look

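Of 156 groups of 5 libraries (78 named genes in 3N female and 2N male heads), 14 held a library far from the other 4 by Dixon's test, which chance does in about 1 group in 20 for normal values. The test used CPM, which can be skewed, and most of the genes were chosen by results of the same libraries. That rate is therefore not a strict reference. In 9 of them it was the 2N male B12A. Its CPM was lower than in the other 4 males for CYP6CK11 (36.2 against 138 to 172) and LOC100123365 (495 against 1040 to 1200). It was higher for CPR48 (26500 against 167 to 2140), CPR37 (29.3 against 0.478 to 3.16), Mrjpl8 (36.6 against 1.67 to 5.44), Hex83 (6.89 against 2.2 to 2.56), Tm1 (1810 against 444 to 568), nAChRa8 (185 against 127 to 142) and Uqcrc2 (785 against 394 to 487). The 3N females with a far value were B32 for Mrjpl8 (0.207 CPM against 0 to 0.0556), B34A for CYP4AB9 (42.4 against 14.4 to 22.4), B35A for Tm1 (302 against 405 to 446), B31 for SP76 (27.3 against 0.0563 to 6.39) and B33 for Pdf (197 against 145 to 157).

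In 4 named genes the difference between 3N females and 2N males was called in opposite directions in heads and abdomens, and the difference between the tissues passed the test. It was 1.57 on the log2 scale for GstS5 (0.74 in heads, -0.71 in abdomens), 3.34 for GstS2 (1.20 and -1.998), 4.67 for LOC100115888 (2.52 and -2.07) and -2.65 for LOC100120701 (-1.27 and 1.47). The head calls of GstS5 and GstS2 were each lost when single libraries were left out.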

How the results depend on the processing

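The 2259 calls between 3N female and 2N male heads became 564 when tested against a fold of 1.5 and 1375 in a fit of all 39 libraries. The 2346 calls between 2N female and 1N male heads became 540, 1518, and 1443 with these 2 groups alone. The 1263 genes called in both became 351, 775, and 642 where the usual pair was limited to differences over 2-fold. For the difference of the sex effects, DESeq2 called 12 genes, log2(TPM + 1) with no filter 3 and a term for letter-named libraries 1, against 0. Leaving out 1 library of its own pair gave 1625 to 2354 calls for 3N females and 2N males and 1586 to 2627 for the usual pair. Libraries of the other head pair, which share the fit, are not in those ranges. Leaving out any 1 of the 20 heads gave 1049 to 1674 genes called in both. For the difference, leaving out 1 of the 3N female or 2N male heads gave 0 calls. In abdomens, leaving out 1 library of the 3N and 2N pair gave 8566 to 8910. Without both B21 and B5D, an alternative chosen after seeing the data, 3316 genes were called between 3N females and 2N males. Of 1948 values of the 78 named genes under the alternatives, 1809 kept direction and side of the threshold, 122 fell short of it, 7 newly passed and 10 turned: LOC100115334 (-0.0623 without B15, -0.0145 without B32; left-out libraries up to 0.253), Tm2 (-0.13 on log2(TPM + 1), with or without the filter, and on log2(TPM + 0.1), -0.000602 without B12A; up to 0.117) and Hex70b (0.00617 on log2(TPM + 1) with or without the filter, 0.0267 on log2(TPM + 0.1), 0.0885 without B14; down to -0.352), none of which passed the main test. DESeq2 gave no adjusted p for CPR48. The causes were not tested. No paired analysis was possible because every library has its own name and no replicate number is shared between groups. Of 214 odorant receptors, 95 passed the filter over the 20 heads, 129 with the 3N female and 2N male heads alone and 130 in the deep libraries alone.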

Other observations

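In the gene order of the RefSeq table, 14 runs of at least 3 neighbouring tested genes rose in 3N female heads over 2N male heads and 44 such runs fell. The rising runs held 47 of the 919 genes that rose and the falling runs 149 of the 1340 that fell. How many runs chance gives was not computed. The longest rising run held 5 odorant receptors, Or278, Or276, Or275, Or272 and Or271 (median log2 2.43), of which 3 were also called higher at the usual ploidy. Or278, Or272 and Or271 were low, with at most 1.63 CPM in any 3N female and 0 to 0.373 CPM in 2N males. Each had 0.056 CPM in the 3N female B35A, so their groups overlapped. The longest falling runs held 6 genes each, with medians of -2.23 and -1.56, of which 4 and 6 were also lower at the usual ploidy. A run of 4 that fell holds SPH103 and CYP9AH2, and another holds CYP4AB9. Neighbouring copies of a family can share reads, and its part in these runs was not tested.

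Of 349 long non-coding RNAs tested in heads, 21 were higher and 14 were lower in females in both pairs, where 410 and 853 of all 10846 tested genes were.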
